A study of Rattus norvegicus with 6 samples.

Results

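The 111 genes described here are the protein-coding rows of a rat RNA-seq count table whose names mark them as keratins, claudins, connexins, desmosome genes or other tight junction genes, together with Cdh1 (E-cadherin) and Epcam. They were chosen by name alone, out of 34156 rows in all. They comprise 21 type II keratins, 26 type I keratins, 28 claudins, 18 connexins, 12 desmosome genes, 4 other tight junction genes (such as Ocln and Tjp1), and Cdh1 and Epcam. RNA came from rat RA-FLS, a purchased line of wild-type fibroblast-like synoviocytes (the fibroblasts that line the joint) labelled with rheumatoid arthritis. The TNF-α group (3 libraries) received 10 ng/mL TNF-α, an inflammatory cytokine. The TNF-α+EMO group (3 libraries) received 10 ng/mL TNF-α together with 80 μmol/L emodin (EMO), an anthraquinone of rhubarb. Both groups thus carry TNF-α, and no culture without TNF-α was analysed here. The labels give day 5 for all libraries, whereas the paper's methods give a shorter incubation. The comparison asks which keratin and junction genes were gained or lost when EMO was added to TNF-α.

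Keratins are the intermediate filament proteins of epithelial cells and assemble as pairs of a type I and a type II chain. Tight junctions seal neighbouring cells through claudins and occludin, which are held by ZO scaffold proteins. Desmosomes join keratin filaments across cells through the cadherins Dsg and Dsc and the plaque proteins plakoglobin, plakophilin and desmoplakin, and connexins form the gap junction channels that let small molecules pass between cells. Fibroblasts usually hold few keratins and no desmosomes, but they do express connexins, ZO proteins and plakoglobin.

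With EMO, the most abundant keratin, the main connexin, plakoglobin and the scaffold ZO-1 were lower, by between 1.94-fold (Tjp1) and 24.2-fold (Gja1). Every connexin with enough counts to test fell, while 41.4% of all tested genes were lower. A smaller set rose: the keratin Krt80, the plakophilins Pkp1 and Pkp4, and the claudin Cldn4, the last from 0 counts. Genes known from epithelium were uneven in level. Krt8 was abundant, Pkp1 and Dsp had between 310 and 524 normalized counts in every library, and Cldn4 was counted only with EMO. Epcam had 0 counts in all 6 libraries, Cdh1 at most 6 and occludin (Ocln) at most 1. The word epithelial is used here for the gene families, and the labels call the cells fibroblast-like.

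The start regions of Krt8, Gja1 and Jup are shown because these had the 3 highest mean normalized counts in the TNF-α group and all were lower with EMO. Each is the 250 bases before the RefSeq transcription start in build GRCr8, which differs from the build of the counts, written 5′ to 3′ along the gene's strand. Capitals mark CACCTG or CAGGTG, the same E-box read on either strand and the letters bound by SNAI and ZEB factors, or TGANTCA, the letters of AP-1 sites on either strand. The windows are chr7:135010340-135010589 (minus strand) for Krt8, chr20:36302314-36302563 (plus strand) for Gja1 and chr10:85827430-85827679 (minus strand) for Jup.
Krt8: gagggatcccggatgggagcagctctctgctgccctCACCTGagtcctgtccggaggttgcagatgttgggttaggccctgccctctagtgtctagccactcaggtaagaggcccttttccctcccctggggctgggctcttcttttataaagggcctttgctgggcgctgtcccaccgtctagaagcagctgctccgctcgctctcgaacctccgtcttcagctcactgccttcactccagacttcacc
Gja1: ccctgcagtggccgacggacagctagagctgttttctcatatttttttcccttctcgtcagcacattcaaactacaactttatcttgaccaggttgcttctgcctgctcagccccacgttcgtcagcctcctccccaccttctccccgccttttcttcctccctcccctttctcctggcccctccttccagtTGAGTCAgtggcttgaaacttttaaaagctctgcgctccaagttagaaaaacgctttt
Jup: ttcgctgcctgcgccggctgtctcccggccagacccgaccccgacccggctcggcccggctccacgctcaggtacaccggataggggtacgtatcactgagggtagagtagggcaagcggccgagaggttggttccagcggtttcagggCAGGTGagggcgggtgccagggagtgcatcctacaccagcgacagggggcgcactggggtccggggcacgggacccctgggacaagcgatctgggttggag

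Krt8 and Jup each hold 1 E-box in this window, and Gja1 holds 1 AP-1 match that begins 58 bases before the start. RefSeq windows were matched for 83 of the 111 genes, with 1 window per gene. Of these, 28 (33.7%) hold an E-box, against 15.9% of 33469 promoters of all genes, which were not limited to 1 per gene. Of the 14 with enough counts to test, 5 hold an E-box, among them Dsp, Krt79 and Tjp3, which did not pass the test given below. The AP-1 letters were found in 6 of the 83 (7.2%), against 6.3% of all promoters. These are descriptions of letters and not of binding.

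Depth was similar across libraries, between 16813322 and 16982023 counts per TNF-α library and between 17185322 and 17794455 per TNF-α+EMO library. At this depth 0 counts in a library allow up to 3. Of the 111 genes, 51 had 0 counts in all 6 libraries, 39 had some counts but too few to test, and 21 had at least 10 counts in at least 3 libraries and were tested. In 72 genes no library held more than 3 counts. The cells carry the label of synovial fibroblasts, and their fibroblast markers were uneven. Collagen Col1a1 averaged 111181 normalized counts with TNF-α and 3709 with EMO. Of 9 fibroblast markers, 6 had enough counts to test, and with EMO 5 of these fell and 1 rose. The others, the synovial lining markers Prg4 and Pdpn and the fibroblast marker Thy1, had at most 7 counts in any library.

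**Figure D1:**
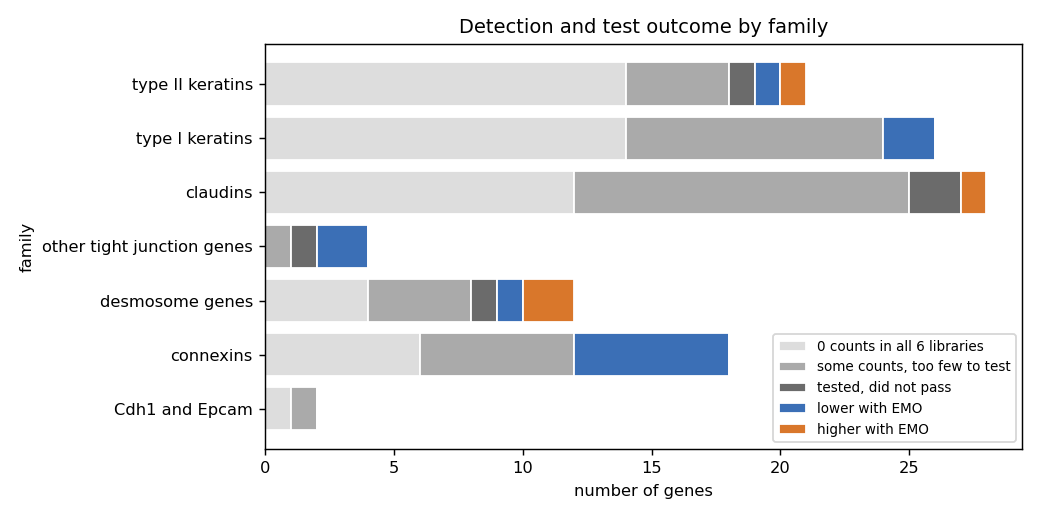
Number of genes (x axis) in each family (y axis), split by whether a gene had counts and by its test outcome between the 3 TNF-α+EMO and the 3 TNF-α libraries. Grey dominates in keratins and claudins, where 28 of 47 keratins and 12 of 28 claudins had 0 counts in all libraries, and connexins hold 6 genes lower with EMO and 0 higher.

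By edgeR's quasi-likelihood test over all 13614 tested genes, 12 of the 21 passed an adjusted p of 0.05 as lower with EMO, 4 passed as higher and 5 did not pass. Among all tested genes, 41.4% were lower and 39.4% higher. With an absolute log2 fold change over 1 as well, 11 were lower and 2 higher, against 27.8% and 19.5% of all tested genes. The groups did not overlap in 17 of the 21, against 82.9% of all tested genes. The 21 had a median log2 fold change of -1.29, beside -0.01 for all tested genes. Of the 21, 5 passed the filter only through the TNF-α libraries and 1 only through the TNF-α+EMO libraries, and such genes had to differ, so these counts describe and do not test the families. In bulk RNA, fewer cells that express a gene and less RNA per cell cannot be told apart. The methods call the 3 libraries of a condition biological replicates, but neither they nor the labels say whether these came from separate cultures, so p-values measure the spread between these libraries.

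**Figure D2:**
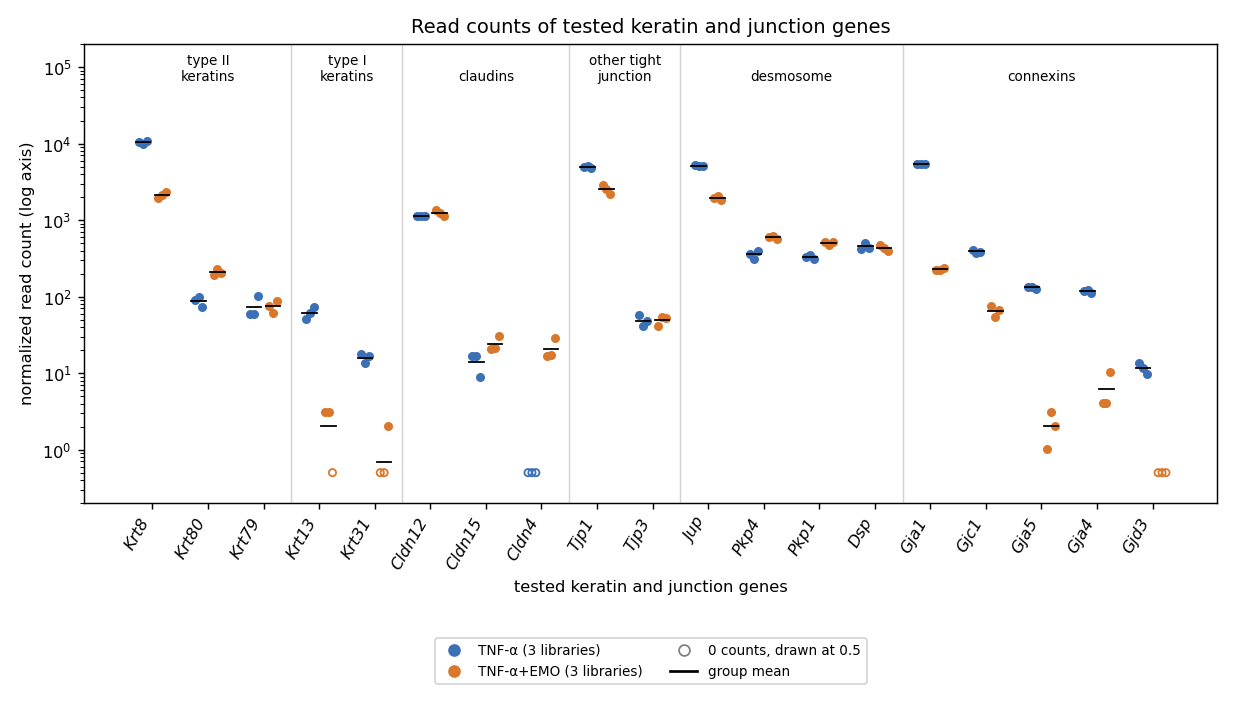
Normalized read count on a log axis (y) of each tested gene whose values are given (x), with a point per library, blue for TNF-α and orange for TNF-α+EMO, open points for 0 counts drawn at 0.5, and black lines for group means. Krt8, Tjp1, Jup and each connexin shown sit lower with EMO in every library, and Krt80, Pkp1, Pkp4 and Cldn4 sit higher.

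Among keratins, Krt8 was lower with EMO and Krt80 higher. Krt8 (ENSRNOG00000009779, chromosome 7, 143596511 to 143603803 in Rnor_6.0), the type II keratin of simple epithelia, had 10427, 9940 and 10801 normalized counts in the TNF-α libraries. The TNF-α+EMO libraries held 1968, 2148 and 2304. All TNF-α libraries were above all TNF-α+EMO libraries. The log2 fold change was -2.28 (SE, its standard error, 0.07, adjusted p = 2.5e-10, edgeR), a 4.85-fold decrease. RefSeq lists 1 pseudogene of Krt8, which can share its reads. Krt80 (chromosome 7, 142994119 to 143016040), a type II keratin expressed in many epithelia, had 89.3, 98.5 and 72.1 normalized counts with TNF-α and 194, 232 and 202 with EMO. It rose 2.41-fold, or 1.27 on the log2 scale (SE 0.17, adjusted p = 3.1e-05), and the groups did not overlap. Krt79, another type II keratin of skin and hair follicle, had 74.2 ± 25.2 normalized counts (SD, n = 3) with TNF-α and 74.4 ± 14.1 with EMO, with a log2 fold change of 0.00 (SE 0.27, adjusted p = 0.99, edgeR).

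The type I keratins were sparse in both groups. Krt13 (chromosome 10, 88032130 to 88036040), a keratin of stratified epithelia of internal surfaces, had 52, 63 and 74 counts with TNF-α and 3, 3 and 0 with EMO. The ratio was 30.03 (95% counting interval 13.5 to 82.9), with an adjusted p of 5.7e-06 by edgeR. Krt31, a hair keratin, had 18, 14 and 17 counts with TNF-α and 0, 0 and 2 with EMO, a ratio of 23.4 (95% counting interval 6.13 to 198, adjusted p = 2.7e-04 by edgeR). The 2 counts of TNF-α+EMO replicate 3 set that ratio, since the other TNF-α+EMO libraries had none, and without it edgeR's log2 fold change moved from -4.32 to -7.01. Both genes were at or under 3 counts in every TNF-α+EMO library. They passed the filter only through the TNF-α libraries and so had to differ.

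The type I partners that accompany Krt8 in simple epithelia were scarcely counted. Krt18, its usual partner, had 1 count over all 6 libraries. RefSeq lists 6 pseudogenes of Krt18, and counting that discards or shares reads between copies would lower it, so its value is uncertain. Krt19 had 3, 8 and 5 counts with TNF-α and 0, 1 and 0 with EMO, and Krt7, a further type II chain, had 17, 22 and 7 against 0, 0 and 0. On the deposited FPKM scale, which divides by gene length, the type II keratins summed to 300 to 328 in the TNF-α libraries and the type I keratins to 3.66 to 4.99. With EMO the sums were 64.1 to 74.9 and 0.327 to 0.479. The type II sum was far above the type I sum in every library of both groups, with the limit on Krt18 given above. Krt8 made up 98.5% to 98.7% of the type II sum with TNF-α and 90.7% to 91.1% with EMO. The basal keratin Krt5 and the suprabasal keratins Krt1 and Krt10 had 0 counts in every library.

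Among claudins, the sealing and pore-forming strands of tight junctions, Cldn12 carried nearly all of the signal. It had 1114, 1133 and 1147 normalized counts with TNF-α and 1359, 1252 and 1130 with EMO, and the groups overlapped. Its log2 fold change was 0.14 (SE 0.08, adjusted p = 0.12, edgeR), and without TNF-α+EMO replicate 3 it was 0.20 (adjusted p = 0.0087, edgeR). Cldn12 made up 92.2% to 95.1% of the claudin FPKM sum with TNF-α and 88.4% to 93.2% with EMO.

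Cldn4 was the only claudin that passed. It encodes a claudin of many simple epithelia and lies on chromosome 12 from 24761210 to 24763005. No TNF-α library held a count of it, against 16, 17 and 28 with EMO. It was at least 7.10-fold higher with EMO against the floor of 3 counts per library (adjusted p = 6.4e-05, edgeR). Cldn4 passed the filter only through the TNF-α+EMO libraries and so had to differ. Its level remained low, at 0.668 ± 0.215 FPKM (SD, n = 3) with EMO, beside 20.7 ± 1.89 for Cldn12. Cldn15, a pore-forming claudin, had 14.01 ± 4.54 normalized counts with TNF-α and 24.2 ± 5.50 with EMO (SD, n = 3 each, adjusted p = 0.066 by edgeR). The other 25 claudins were not tested, and none of them exceeded 10 counts in a library. Cldn7 had 0 counts in all libraries, and Cldn3 had at most 2.

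The scaffold gene Tjp1 fell and Tjp3 did not pass. Tjp1 (chromosome 1, 126146489 to 126227469), which encodes ZO-1, had 4916, 5125 and 4829 normalized counts with TNF-α and 2899, 2572 and 2182 with EMO. Its log2 fold change was -0.96 (SE 0.09, adjusted p = 2.7e-06, edgeR), or 1.94-fold lower, and the groups did not overlap. Tjp3, which encodes ZO-3 of epithelial cells, had 48.5 ± 7.997 and 49.1 ± 6.93 normalized counts (SD, n = 3 each) and did not pass (adjusted p = 0.95, edgeR). Tjp3 overlaps Apba3 on the opposite strand, a gene with up to 1393 counts, and the strand setting of the counting is not given in the sources used here, so the value of Tjp3 is less certain.

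In desmosomes, the plaque genes were counted and the cadherins were not. The 7 desmosomal cadherin genes (Dsc1 to Dsc3 and Dsg1 to Dsg4) had 10 counts together over the 6 libraries, and 4 of them had none. Jup (chromosome 10, 88279632 to 88307412) encodes plakoglobin, which serves desmosomes and, with classical cadherins, adherens junctions. Its normalized counts were 5209, 5114 and 5046 with TNF-α and 1951, 2062 and 1831 with EMO. The log2 fold change was -1.39 (SE 0.06, adjusted p = 3.8e-09, edgeR), a 2.63-fold decrease with no overlap between groups.

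Both tested plakophilins went the other way. Pkp4, a plakophilin found at adherens junctions as well as desmosomes, had 355, 311 and 398 normalized counts with TNF-α and 601, 611 and 566 with EMO, a log2 fold change of 0.74 (SE 0.10, adjusted p = 4.7e-05, edgeR). Pkp1, a desmosomal plaque protein of stratified epithelia, had 329, 347 and 310 against 524, 473 and 522, a log2 fold change of 0.62 (SE 0.09, adjusted p = 6.9e-05, edgeR). The groups overlapped in neither gene. Dsp, desmoplakin, which ties the plaque to keratin filaments, had 422, 509 and 430 against 472, 435 and 390 normalized counts and overlapped, with a log2 fold change of -0.07 (SE 0.11, adjusted p = 0.57, edgeR). The plaque genes therefore did not move together: plakoglobin fell and the tested plakophilins rose.

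Connexins held more genes lower with EMO than any other of the families. They also held the most genes with enough counts to test. All 6 tested were lower with EMO, beside 41.4% of all tested genes, and the other 12 had too few counts to test. Gja5 and Gjd3 were among the genes that passed the filter only through the TNF-α libraries and so had to differ. Gja1 (ENSRNOG00000000805, chromosome 20, 37876650 to 37889089), which encodes connexin 43, the main gap junction protein of fibroblasts, had 5472, 5466 and 5457 normalized counts with TNF-α. The TNF-α+EMO libraries held 221.8, 221 and 235. Each group was tight and the distance between them wide, with a log2 fold change of -4.59 (SE 0.07, adjusted p = 1.8e-12, edgeR), or 24.2-fold lower. Gjc1, which encodes connexin 45, had 407, 374 and 386 normalized counts against 75.3, 54.2 and 66.2. It fell by 2.57 on the log2 scale (SE 0.14, adjusted p = 2.4e-08, edgeR).

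The vascular connexins Gja4 (connexin 37) and Gja5 (connexin 40) were also lost. Gja4 had 117, 122.9 and 113 normalized counts with TNF-α and 4.13, 4.09 and 10.2 with EMO, a log2 fold change of -4.23 (SE 0.33, adjusted p = 4.1e-07, edgeR). Gja5 had 137, 138 and 130 counts against 1, 3 and 2, a ratio of 64.4 (95% counting interval 29.3 to 176, adjusted p = 1.9e-08 by edgeR). Gjd3 had 14, 12 and 10 counts against 0 in each, or at least 3.82-fold less against the floor (adjusted p = 2.7e-04, edgeR). On the FPKM scale the connexins summed to 124 to 126 with TNF-α and to 6.25 to 6.89 with EMO, and Gja1 supplied 80.8% to 82.3% and 61.3% to 65.2% of those sums. The epidermal connexins Gjb2 and Gjb6 had 0 counts throughout. Pannexins, which form related channels, were too sparse to test, with at most 6 counts of Panx1 in a library.

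**Figure D3:**
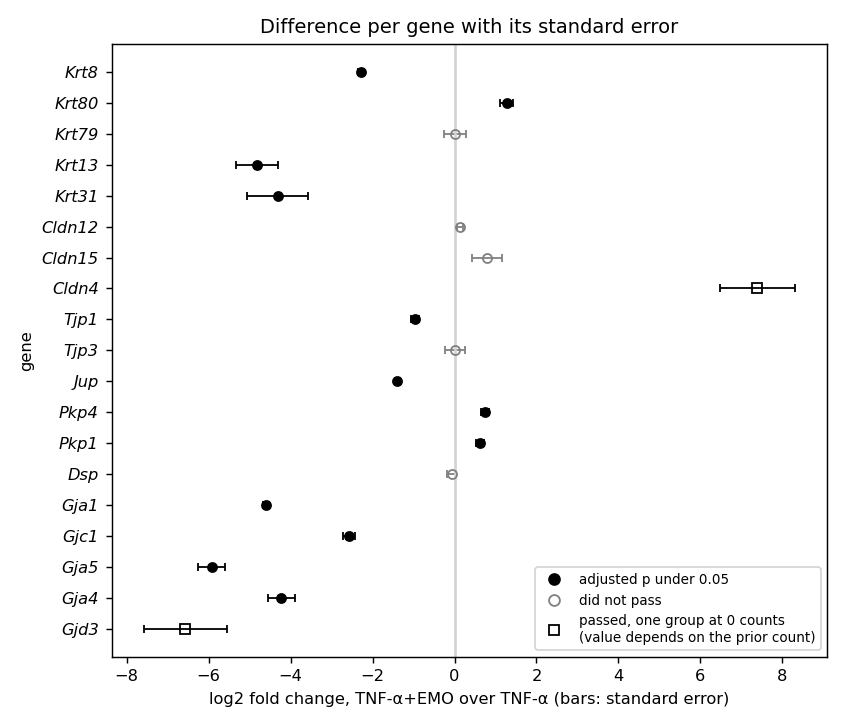
Log2 fold change of TNF-α+EMO over TNF-α (x axis) for the same genes (y axis), with bars for its standard error, filled for an adjusted p under 0.05 by edgeR, open grey for genes that did not pass and squares where a group had 0 counts, whose position depends on the small count edgeR adds. The 4 connexins counted in both groups lie between -2.57 and -5.92, whereas Krt80, Pkp1 and Pkp4 lie between 0.62 and 1.27.

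The order of levels also differed between the groups. On the FPKM scale the levels in the TNF-α group ran from 310 ± 13.5 for Krt8 through 102 ± 0.129 for Gja1 and 67.1 ± 0.957 for Jup to 41.7 ± 1.21 for Tjp1, the 4 highest means (SD, n = 3 each), and no neighbours in that order overlapped. In the TNF-α+EMO group the order was Krt8 (63.3 ± 5.02), Jup (25.3 ± 1.49), Tjp1 (21.3 ± 2.98) and Cldn12 (20.7 ± 1.89). Jup overlapped Tjp1, and Tjp1 overlapped Cldn12, so the order of those neighbours does not exceed their spread, although Jup was above Cldn12 in every library. Gja1, the next after Krt8 with TNF-α, stood at 4.17 ± 0.151 FPKM with EMO, under Pkp4 (7.74 ± 0.303) and Pkp1 (6.34 ± 0.360).

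Genes that build junctions together with these families were read from short lists by function. Of 13 adherens junction genes, all tested, 8 fell and 5 rose (median log2 fold change -1.22). Among all tested genes, 41.4% were lower and 39.4% higher. The classical cadherins, the transmembrane adhesion proteins to which catenins and plakoglobin bind, fell furthest. Cdh2 (N-cadherin) had 4861 ± 241 normalized counts with TNF-α and 476 ± 40.9 with EMO (SD, n = 3 each), Cdh11, the synovial fibroblast cadherin, 2968 ± 113 and 40.3 ± 6.69, and Cdh3 (P-cadherin) 3425 ± 78.2 and 32.1 ± 10.7. The adjusted p-values by edgeR were 3.6e-11, 4.5e-12 and 1.3e-11. The catenins, which link cadherins to actin, were divided. Ctnnb1 (β-catenin) and Ctnnd1 (p120) had log2 fold changes of -1.35 and -1.22 (adjusted p = 1.7e-08 and 2.5e-08, edgeR), while Ctnna1 (α-catenin) rose by 0.30 (SE 0.06, adjusted p = 8.3e-04, edgeR). Vezt (vezatin, a junction membrane protein) and the nectins Nectin1, Nectin3 and Nectin4, adhesion proteins of the immunoglobulin family, rose as well, and Nectin4 went from 3.58 ± 2.81 to 80.3 ± 10.5 normalized counts. Cdh2, Cdh3, Cdh11, Vezt and the nectins are named after their values were seen.

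**Figure D4:**
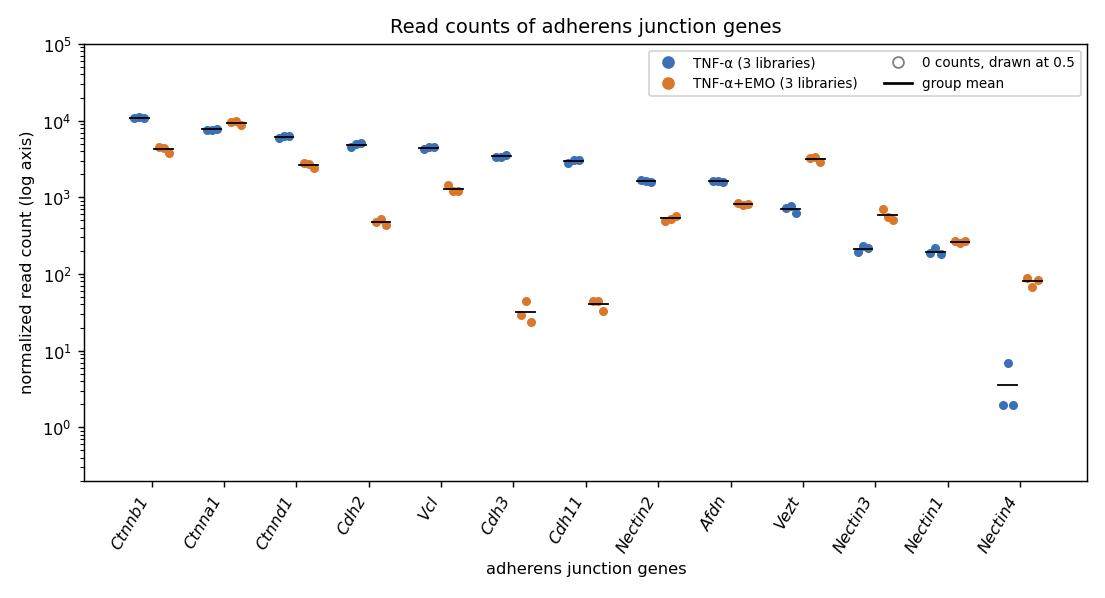
Normalized read count on a log axis (y) of 13 adherens junction genes (x), with a point per library, blue for TNF-α and orange for TNF-α+EMO, and black lines for group means. Cdh2, Cdh3 and Cdh11 drop with EMO, to means of 476, 32.1 and 40.3, whereas Vezt and 3 of the 4 nectins rise.

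Of 18 tight junction partners, 12 were tested, 8 fell, 2 rose and 2 did not pass (median log2 fold change -1.19). The shares over all tested genes were 41.4% lower and 39.4% higher. The MAGI scaffolds Magi1 and Magi3 had log2 fold changes of -3.09 and -2.97 (adjusted p = 3.0e-10 and 9.4e-11, edgeR). The polarity scaffold Pard3 fell as well, with a log2 fold change of -0.52. Tjap1, a tight junction-associated protein, rose by 0.60 (adjusted p = 1.1e-05, edgeR). The other that rose, the junction adhesion molecule Jam3, had a log2 fold change of 0.24 (adjusted p = 0.017, edgeR) and did not pass without TNF-α replicate 1 or 2 (adjusted p = 0.066 and 0.055, edgeR). The epithelial partners Marveld2, Marveld3 and Crb3 had 0 counts in every library. Of 10 desmosome partners and cell envelope genes, 4 were tested and 3 fell. The plakin linkers Dst and Plec had log2 fold changes of -2.39 and -1.91. Ppl, periplakin, went from 1394 ± 26.6 normalized counts to 10.9 ± 3.82 (SD, n = 3 each, adjusted p = 1.7e-11 by edgeR).

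Factors known to set epithelial against mesenchymal expression were read from a pair of lists. Of 9 genes listed as drivers of epithelial-mesenchymal transition, 8 were tested, 7 fell and 1 rose, with a median log2 fold change of -2.62. Beside them, 41.4% of all tested genes were lower and 39.4% higher. Snai1 and Snai2, which repress Cdh1, had log2 fold changes of -2.46 and -2.79 (adjusted p = 1.2e-08 and 8.4e-09, edgeR), and are named after their values were seen. Zeb2 fell by 0.60 while Zeb1, of the same family, rose by 0.55 (SE 0.10, adjusted p = 5.1e-04, edgeR). Cdh1 itself had 6, 2 and 0 counts with TNF-α and 0 in each library with EMO. Of 16 epithelial regulators, 6 were tested, 3 fell, 2 rose and 1 did not pass (median -1.17), which is near the 41.4% lower and 39.4% higher among all tested genes. Tfap2a fell from 356 ± 35.4 to 96.7 ± 9.80 normalized counts and Foxa2 from 199 ± 26.4 to 6.496 ± 2.62, whereas Grhl2, a regulator of junction genes, rose from 150 ± 8.48 to 249 ± 26.6 (SD, n = 3 each, adjusted p = 3.7e-04 by edgeR). The splicing regulator Esrp1 and the factors Grhl3 and Ovol2 had 0 counts in all libraries. Of 14 epithelial surface and protease genes, 4 were tested, 2 fell, 1 rose and 1 did not pass (median -1.01), and Spint2, a protease inhibitor, fell by 1.70.

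Keratins were a small part of the intermediate filament RNA. Vim, vimentin, the filament protein of mesenchymal cells, had 61464 ± 1350 normalized counts with TNF-α and 32387 ± 1299 with EMO (SD, n = 3 each), and fell by 0.92 on the log2 scale (SE 0.05, adjusted p = 2.5e-08, edgeR). The fall of Krt8, given above, was not tested against that of Vim. Of 10 intermediate filament genes other than keratins, Vim among them, 7 were tested, 5 fell and 2 did not pass (median -1.09). Of all tested genes, 41.4% were lower. Lmna, nuclear lamin A/C, had a log2 fold change of 0.05 (SE 0.10, adjusted p = 0.62, edgeR), and Lmnb1, lamin B1, fell by 4.16.

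Markers of mesothelium, the keratin-bearing lining of body cavities, were read beside these genes. Of 7 mesothelial markers, 4 were tested and all 4 fell, beside 41.4% lower and 39.4% higher among all tested genes. The summed level of the 7 went from between 3175 and 3470 normalized counts to between 31 and 32. Lrrn4 had 2047, 1923 and 1945 counts with TNF-α and 3, 1 and 0 with EMO, and Msln (mesothelin) went from 954 ± 67.3 normalized counts to 18.1 ± 6.61 (SD, n = 3 each, adjusted p = 1.9e-10 by edgeR). The mesothelial factor Wt1 had at most 1 count and Calb2 at most 1. Of 9 fibroblast markers, 6 were tested, 5 fell and 1 rose, and the sum went from between 135743 and 155352 to between 4069 and 4188. Of 8 simple epithelial markers, 2 were tested, Krt8 and Cldn4, and their opposite changes are given above. Of 7 keratinocyte markers, 5 had 0 counts in all libraries, and Tp63 had 15, 16 and 13 counts against 0 in each. The part of a change in cell make-up in the results for keratins and junctions was not tested.

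**Figure D5:**
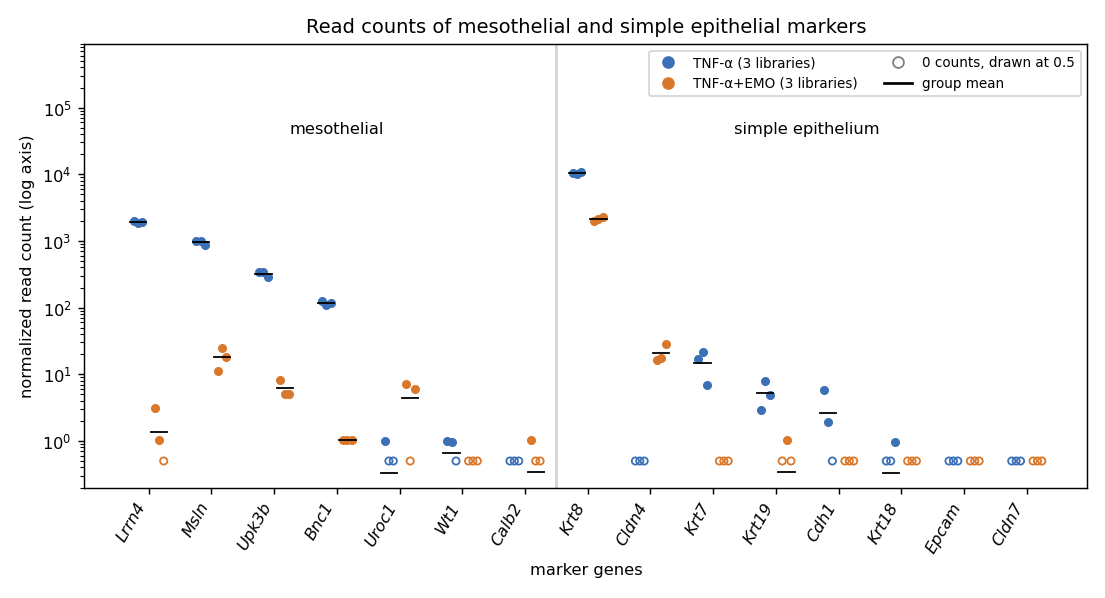
Normalized read count on a log axis (y) of mesothelial and simple epithelial marker genes (x), with a point per library, blue for TNF-α and orange for TNF-α+EMO, open points for 0 counts drawn at 0.5, and black lines for group means. Lrrn4, Msln, Upk3b and Bnc1 lie at 119 to 1926 on average with TNF-α and at 18.1 or lower with EMO, and Epcam and Cldn7 are at 0 in all libraries.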

How the data were processed

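Poly(A)-selected paired-end libraries, 3 of the TNF-α and 3 of the TNF-α+EMO group, were aligned by the authors with Hisat2, on Rnor_6.0 per the submitters' processing notes. The counting program and strand setting are not given in the sources used here. The authors deposited raw counts per gene without normalization. The authors also deposited FPKM values (scaled by gene length and mapped fragments), used here only to compare levels between genes, and gene lengths as another column (gene_length). Their own comparison (group means, fold changes and p-values) was not used.

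A gene was tested if 3 or more libraries each held 10 or more counts. The model was that of edgeR 4.0.16 (R 4.3.3) with TMM factors (robust quasi-likelihood F test, Benjamini-Hochberg adjustment over 13614 genes, checked on simulated counts). Normalized counts are counts scaled to the mean TMM effective library size. The standard error is the log2 fold change divided by the square root of F. A group with 0 counts in all libraries was set to 3 counts per library to give a lower bound. Ratios against 1 to 3 counts have exact binomial 95% intervals. Such intervals and floors describe counting error alone, because PCR copies cannot be told from separate molecules. An exact permutation test of 3 against 3 libraries cannot go below p = 0.1.

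Values were given for members averaging at least 100 normalized counts in a group, and for other members past both thresholds (adjusted p 0.05, absolute log2 fold change 1). From the fixed lists, up to 4 of the most abundant genes and regulators at 0 were named, with others chosen after their values were seen. The members and lists were chosen with earlier results of these data known. Alternatives were DESeq2 1.42.0, other scalings, filters and thresholds, the replicate block and leaving out each library. Promoters are RefSeq's (GRCr8), and the AP-1 letters were added after the data were seen. Some members and list genes are counted but not reported here by name.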

Additional observations from a re-analysis of the deposited data

How the results depend on the processing

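Under DESeq2, relative log expression factors, upper quartile scaling and the replicate block, 4 keratin and junction genes were higher and 12 lower, as in the main comparison. Leaving out each library gave 4 to 5 higher and 12 lower. Without a filter on low counts 5 were higher and 18 lower, with more genes tested, among the added genes Krt23 (higher) and Krt7, Krt15, Krt19, Krt14 and Krt81 (lower). With a filter of 1 CPM in 3 libraries 3 were higher and 10 lower, since Cldn4, Gjd3 and Krt31 were not tested. An absolute log2 fold change over 1, with an adjusted or an unadjusted p under 0.05, left 2 higher and 11 lower members, and 5 instead of 11 higher genes of the fixed lists. Of 249 log2 fold changes of the 21 tested genes under the alternatives, 248 kept their direction and their side of the threshold or stayed below it, and the exception was Cldn12. Jam3, on the list of tight junction partners, lost its call without TNF-α replicate 1 or 2 (adjusted p = 0.066 and 0.055, edgeR). The labels give both groups the numbers 1 to 3. The deviations of same-numbered libraries from their group means correlated at 0.019, -0.007 and 0.068 across genes. No pairing was seen, although deviations from means of 3 libraries could miss one. The libraries did not all correlate best with their own number. Depth limits the 90 untested genes, for which a difference was not detectable.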

Other observations

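Other markers gave values for cell types that the label does not name. Of 7 macrophage markers, 2 were tested. Cd14 fell from 1093 ± 57.8 to 510 ± 41.2 normalized counts and Cd68 rose from 153 ± 14.7 to 256 ± 11.3 (SD, n = 3 each, adjusted p = 4.4e-07 and 2.4e-04 by edgeR), while the leukocyte gene Ptprc had at most 1 count. Of 5 endothelial markers, 1 was tested, and Vwf fell from 53.4 ± 1.07 to 4.46 ± 4.18 normalized counts (adjusted p = 3.1e-05, edgeR), with Kdr and Emcn at 0 in all libraries. The remaining endothelial markers, Cdh5 and Tek, had too few counts to test and their groups overlapped. Cdh5 averaged 7.17 normalized counts with TNF-α and 6.83 with EMO, and Tek 12.4 and 5.12. A link of these markers to the vascular connexins Gja4 and Gja5 was not tested. Lymphocyte markers summed to 7 normalized counts or fewer in every library.

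Sox9, a cartilage factor, fell from 487 ± 46.0 to 4.10 ± 2.72 normalized counts (adjusted p = 1.5e-09, edgeR), and Acan had 0 counts throughout. The smooth muscle myosin gene Myh11 fell from 376 ± 26.9 to 13.7 ± 3.02, and Actg2 rose from 3.57 ± 4.61 to 19.8 ± 3.20 (adjusted p = 1.2e-09 and 0.0074, edgeR).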
